A study of Piaractus mesopotamicus with 9 samples.

Results

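The response of starved pacu myotubes to IGF1 was described across all miRNA families, as the 3 IGF1 libraries against the 3 CTR libraries, which are 6 of the 9 small RNA libraries of the study. Pacu (Piaractus mesopotamicus) is a freshwater fish of South America, and myotubes are multinucleated muscle cells made by the fusion of precursors. Cells from the fast-twitch muscle of pooled juvenile fish were cultured for 8 days. According to the treatment protocol, the CTR cells then spent 36 h in medium free of amino acids, and the IGF1 cells spent 12 h in that medium and 24 h in the same amino acid-free medium with insulin-like growth factor 1, while the sample characteristics give 12 h of IGF1. The remaining group, AA, received amino acids in DMEM, another base medium, for the same time as IGF1. It entered the model as an additional group and was also compared with IGF1 directly. IGF1 was therefore given without the amino acids that protein synthesis uses, and both groups compared were starved of them. The study states that its results came from 3 independent cell cultures but not which culture gave which library. Of the 3579 miRNA entries counted, 1769 had a mean of at least 10 counts over the 9 libraries, and entries with identical counts in every library were merged, which left 953 distinct count profiles.

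MicroRNAs are short RNAs that guide the silencing machinery to messenger RNAs with matching sites, mostly through the seed at their 5′ end. Members of a family share a number and usually a seed, and each hairpin precursor gives a 5p and a 3p arm, of which the less abundant is often called the passenger strand. IGF1 binds its receptor and activates PI3K, AKT and MTOR, which raise protein synthesis and lower the transcription of atrophy genes in muscle, and in mammals several miRNAs act on this pathway, such as let-7 on the receptors. The reference entries were mature miRNAs of 13 teleost species and none of pacu, so each name carries the species of the entry, such as dre for zebrafish, ssa for Atlantic salmon, gmo for cod, ola for medaka and ipu for channel catfish. A read can match the same miRNA in several species, so profiles of 1 family often hold nearly the same reads. Profiles of the same miRNA number whose counts differed by at most 2% or 2 counts in each library were therefore also grouped as near-identical, which gave 608 groups in 118 families.

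The counts over zebrafish entries numbered 7627250 to 12074500 in CTR and 10628900 to 12908100 in IGF1, and dre-miR-21, a miRNA abundant in many cell types, made up 53.6 to 55.5% and 51.0 to 57.1% of them. The 4 families of the muscle-specific list (miR-206, miR-1, miR-499 and miR-133) were detected, but held only 0.0439 to 0.0683% of these counts in CTR and 0.0757 to 0.0851% in IGF1. The 6 mesenchymal and fibroblast markers (miR-199, miR-214, miR-140, miR-143, miR-145 and miR-455) held 6.56 to 6.94% in CTR and 6.26 to 8.08% in IGF1. Epithelial and liver markers held 0.00308 to 0.00338% in CTR and 0.00296 to 0.00480% in IGF1, and blood and endothelial markers 0.0137 to 0.0170% and 0.0146 to 0.0209%. Of the 6 blood and endothelial markers 4 had a tested profile, and of the 8 epithelial and liver markers 5 had. Those without one were miR-223, miR-144, miR-141, miR-205 and miR-429. Neural markers held 0.204 to 0.222% in CTR and 0.182 to 0.256% in IGF1. In bulk cultures, fewer cells of a type and less RNA per cell cannot be told apart, and the part of the cell mixture in the results that follow was not tested.

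Few miRNA profiles were called different between IGF1 and CTR, mostly by modest amounts and in both directions. Among the 953 profiles, 18 (1.89%) were called in edgeR, with an adjusted p (Benjamini-Hochberg) no larger than 0.05, a log2 fold change at or beyond 0.55 in either direction and the replicate number as a block. Of these, 9 were higher (0.944%) and 9 lower (0.944%) in IGF1. These 18 called profiles came from 39 entries, 15 near-identical groups and 9 families. The higher ones were 2 entries of miR-206, 2 let-7 3p arms, miR-125 in the entries mze-miR-125c and dre-miR-125b-1-3p, dre-miR-338-5p, dre-miR-30a-3p and ola-miR-92a. The lower ones were ssa-miR-26a-4-3p, 3 near-identical profiles of miR-92b, ipu-miR-29b, ssa-miR-29b-3-5p, dre-miR-19d-3p and 2 near-identical profiles of miR-19a-3p. Libraries of the groups did not overlap for 17 of the 18, against 10.8% of all profiles, and 17 moved the same way in all 3 pairs of equally numbered libraries, against 40.2% of all profiles. The calls were chosen on these same libraries, so both counts follow in part from the choice and are not separate support. The median log2 fold change of all profiles was -0.0030, with 472 above and 481 below 0.

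By the adjusted p alone, 55 profiles (5.77%) of 25 near-identical groups and 15 families passed, 17 higher (1.78%) and 38 lower (3.99%) in IGF1. The 37 that passed without reaching the fold threshold were 8 higher profiles of miR-181, miR-148, miR-152, miR-196 and miR-22, and 29 lower profiles of miR-101, miR-26, miR-29 and miR-19. The lower side thus rested on entries of 5 families. The 17 higher profiles were 15 near-identical groups and the 38 lower ones 10, so the larger number of lower profiles reflected near-identical entries. With near-identical entries collapsed, 18 passed as higher and 11 as lower. The calls depended on the model. Without the replicate block edgeR called 0 profiles, with 75 of 953 at an unadjusted p of at most 0.05 against 129 with the block, and DESeq2 called 14 with the block and 11 without it. Without the replicate 3 libraries of all groups, only dre-miR-206-3p stayed called. Upper-quartile factors shifted the median of all profiles to 0.14 and turned the split into 36 higher and 3 lower calls, so that directions below are relative to the median of all profiles.

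**Figure D1:**
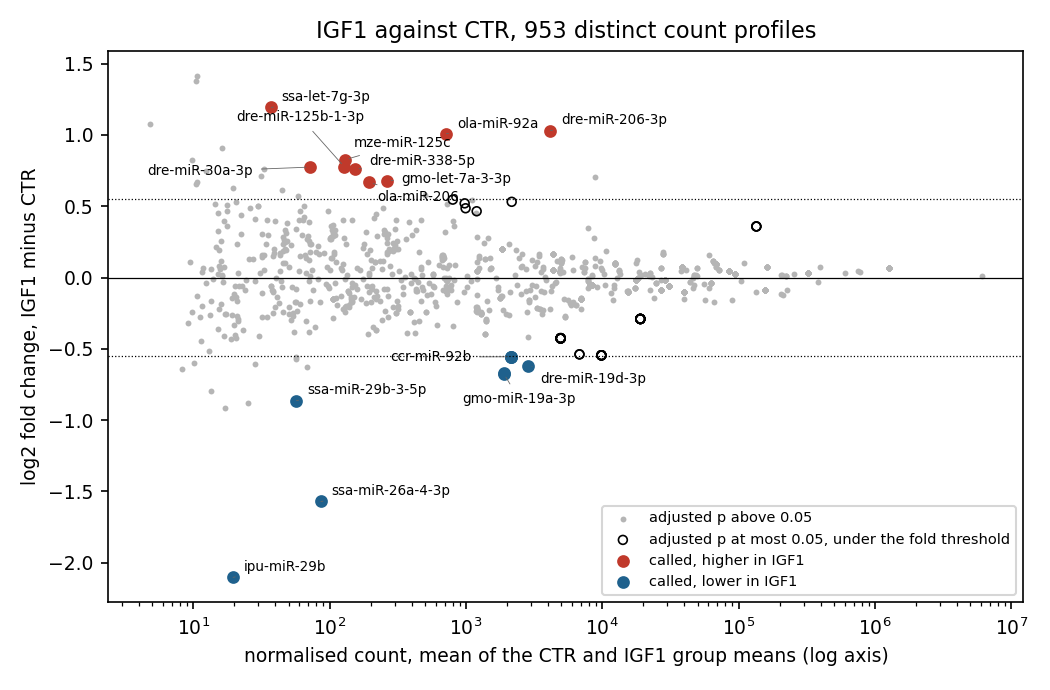
Log2 fold change of IGF1 over CTR (y axis) against the mean normalised count of both groups (x axis, log scale) for the 953 profiles, with the 0.55 thresholds dotted. Red points are the 9 called profiles higher in IGF1, blue points the 9 called lower, open circles the 37 that passed the adjusted p alone, which lie between -0.55 and 0.55.

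The clearest difference was in miR-206, a miRNA of skeletal muscle that promotes myoblast differentiation in mice. The zebrafish 3p entry dre-miR-206-3p, which stands for 10 entries with the same counts, had normalised counts of 2028, 2673 and 3544 in CTR replicates 1 to 3 and of 4795, 5859 and 6126 in IGF1 replicates 1 to 3. Every IGF1 library lay above every CTR library. This was a 2.04-fold rise, or a log2 fold change of 1.03 ± 0.09 (SE, n = 3 libraries a group, edgeR adjusted p = 0.000106). With each library left out in turn it ranged from 0.92 to 1.14 and stayed called, and of 24 alternatives it missed the call only without the block (edgeR adjusted p = 0.0778). The medaka entry ola-miR-206 was lower in level, at 97.0, 153 and 209 in CTR and 213, 265 and 235 in IGF1. Its IGF1 libraries lay above the CTR libraries, although the nearest libraries almost touched, and its log2 fold change was 0.67 ± 0.17 (edgeR adjusted p = 0.0413). The call on ola-miR-206 was lost without CTR replicate 1 or 2, IGF1 replicate 1 or 2, or AA replicate 3. The 5p arm ssa-miR-206-5p had 1.44 to 4.80 normalised counts in CTR and 4.71 to 10.2 in IGF1, too few for a call (log2 fold change 1.08 ± 0.65, edgeR adjusted p = 0.448).

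The other muscle-specific miRNAs did not pass the test. miR-1, which promotes muscle differentiation in mice, had 2075, 2716 and 3211 normalised counts in CTR and 2152, 2791 and 3611 in IGF1 for dre-miR-1, so that the groups overlapped almost fully. Its log2 fold change was 0.06 ± 0.09 (edgeR adjusted p = 0.755). miR-133, transcribed with miR-1 or miR-206 from shared clusters, gave 8 profiles between -0.13 and 0.52, of which dre-miR-133b-3p had 279, 216 and 289 in CTR and 350.0, 282 and 383 in IGF1 (log2 fold change 0.34 ± 0.15, edgeR adjusted p = 0.321). miR-499, which lies in a slow myosin heavy chain gene, had 78.8, 166 and 140 normalised counts in CTR and 53.1, 209 and 160.3 in IGF1 for dre-miR-499-5p, a log2 fold change of 0.02 ± 0.20. Of the 15 profiles of the muscle-specific list, 12 were above 0 and 2 were called, both of miR-206, and the list's median was 0.22 beside -0.0030 over all profiles. Without CTR replicate 3 only 8 of the 15 were above 0 and the median was 0.08, and without IGF1 replicate 1 it was 0.13. The median difference within pairs was 0.05 for replicate 1, 0.23 for replicate 2 and 0.17 for replicate 3.

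Among the 224 profiles of miRNAs tied to insulin and IGF signalling in mammals, 2 were called higher, both let-7 3p arms. The 4 called lower were ssa-miR-26a-4-3p and 3 profiles of miR-19. Over all 953 profiles, 0.944% were called higher and 0.944% lower. The 3p arm gmo-let-7a-3-3p had 223, 198 and 179.9 normalised counts in CTR and 387, 306 and 289.9 in IGF1. All IGF1 libraries were above all CTR libraries, with a log2 fold change of 0.68 ± 0.13 (edgeR adjusted p = 0.0123). The call was lost without CTR replicate 1 or 2 or IGF1 replicate 1. The rarer ssa-let-7g-3p had 15.4, 25.8 and 24.5 in CTR and 25.0, 67.4 and 66.0 in IGF1. Here IGF1 replicate 1 lay inside the CTR range while the other IGF1 libraries lay far above it, and the log2 fold change of 1.19 ± 0.26 (edgeR adjusted p = 0.0316) was the one call whose groups overlapped. It was lost without any of the 3 CTR libraries or IGF1 replicate 2 or 3. The 2 let-7g 3p profiles had a median of 0.55 at a mean of 882 counts. The other one, far more abundant, thus did not share the rise of ssa-let-7g-3p. The let-7 family as a whole, whose 5p arms repress IGF and insulin receptor mRNAs in mice and human cells, had 81 of 108 profiles above 0 with a median of 0.05 (0.02 without CTR replicate 2 or IGF1 replicate 1), and let-7 summed over its profiles did not pass (log2 fold change 0.07 ± 0.06, edgeR adjusted p = 0.651).

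miR-125b represses Igf2 in mouse myoblasts. Its abundant 5p arm was at a log2 fold change of -0.12, while 1 of its 3 rarer 3p profiles, dre-miR-125b-1-3p, was called. The median of those 3 profiles was only 0.16, so the rise was not shared by the 3p arm as a whole. dre-miR-125b-1-3p had 84.5, 91.2 and 107 normalised counts in CTR and 195, 144 and 149 in IGF1. The entry mze-miR-125c had 83.6, 88.4 and 108 in CTR and 199, 152 and 149 in IGF1. These 2 entries differed by only a few counts per library, so they may hold mostly the same reads and count as 1 observation. IGF1 lay above CTR without overlap in both, at log2 fold changes of 0.78 ± 0.17 and 0.83 ± 0.17 (edgeR adjusted p = 0.0299 and 0.0238). Both calls were lost without CTR replicate 1 or 2 or IGF1 replicate 1. Over the 12 profiles of miR-125, 8 were above 0 with a median of 0.11, which was 0.03 without CTR replicate 1 and 0.04 without IGF1 replicate 1. The family sum, set by the abundant 5p arms, was at -0.08 ± 0.07 and did not pass (edgeR adjusted p = 0.651).

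miR-26 represses the chromatin regulator EZH2 in mammals. Its largest difference was in a passenger strand, ssa-miR-26a-4-3p, with 165, 116 and 105 normalised counts in CTR and 58.6, 42.3 and 30.6 in IGF1. The highest IGF1 library was well below the lowest CTR library, and the log2 fold change of -1.57 ± 0.22 (edgeR adjusted p = 0.0066) stayed past the threshold with each library left out in turn, between -1.75 and -1.38. Among the 5p entries, the miR-26b group of 9 near-identical profiles was lower by a small amount. Its member dre-miR-26b had 21808, 18542 and 21923 normalised counts in CTR and 17723, 15064 and 19142 in IGF1. IGF1 was lower in all 3 pairs, although IGF1 replicate 3 lay above CTR replicate 2, and the log2 fold change was -0.29 ± 0.07 (edgeR adjusted p = 0.0406). The more abundant miR-26a differed less, at -0.09 ± 0.05 for dre-miR-26a-5p (edgeR adjusted p = 0.448). The medaka entry ola-miR-26 went the other way, with 7194, 6161 and 6384 in CTR and 7118, 12702 and 13371 in IGF1, and missed the threshold (log2 fold change 0.71 ± 0.19, edgeR adjusted p = 0.0605).

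miR-19 and miR-92a come from the miR-17-92 cluster, which drives proliferation in mammals. dre-miR-19d-3p had 3796, 2941 and 3502 normalised counts in CTR and 2113, 2027 and 2701 in IGF1. dre-miR-19a-3p had 2632, 1953 and 2294 in CTR and 1448, 1146 and 1889 in IGF1. The groups did not overlap in either, with CTR the higher, although for miR-19a the nearest libraries were close. The log2 fold changes were -0.62 ± 0.12 (edgeR adjusted p = 0.0181) and -0.67 ± 0.15 (edgeR adjusted p = 0.0316). The most abundant member, dre-miR-19b-3p, had 9314, 6655 and 7931 in CTR and 5434, 4617 and 6906 in IGF1. It overlapped between the groups and passed the adjusted p but not the fold threshold (log2 fold change -0.54 ± 0.14, edgeR adjusted p = 0.0413). The miR-19a calls were lost without CTR replicate 1 or 2 or any 1 of the IGF1 libraries, and the miR-19d call without CTR replicate 1 or 2 or IGF1 replicate 1.

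The miR-92b profiles, here ccr-miR-92b of common carp, had 2383, 2602 and 2595 normalised counts in CTR and 1583, 1803 and 1874 in IGF1. All IGF1 libraries were below all CTR libraries, with little spread within groups, and the log2 fold change was -0.56 ± 0.08 (edgeR adjusted p = 0.0066). These 3 near-identical profiles stood just inside the fold threshold of 0.55, and left the call without CTR or IGF1 replicate 1, under RLE and upper-quartile factors and in DESeq2. They also left it in edgeR without the block, without the filter, at a mean of at least 50 counts and over all entries. For ccr-miR-92b the call was lost in 12 of 23 alternatives. Nearest outside the fold threshold were ssa-miR-196a-4-3p at 0.546 and miR-101a at -0.545. miR-92a, from the same family, did not pass in its abundant form (dre-miR-92a-3p, log2 fold change -0.07 ± 0.07) but rose in the medaka entry ola-miR-92a. That entry had 522, 450.5 and 417 in CTR and 537, 1197 and 1189 in IGF1. IGF1 replicate 1 was thus at the CTR level and the other IGF1 libraries far above, and on the scale of the test this profile was higher in only 2 of 3 pairs (log2 fold change 1.01 ± 0.26, edgeR adjusted p = 0.0416). The call on ola-miR-92a was lost without IGF1 replicate 2 or 3, CTR replicate 2 or 3, or AA replicate 3.

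miR-29 represses collagens and other matrix mRNAs in mammals, and its profiles were shifted downward together. ipu-miR-29b, an entry the study followed up and so chose on these libraries, was rare, with 28.8, 36.8 and 28.8 normalised counts in CTR and 3.12, 14.1 and 5.89 in IGF1. CTR and IGF1 did not overlap, and the log2 fold change of -2.10 ± 0.40 (edgeR adjusted p = 0.014) was the lowest of all 953 profiles. At a mean of 15.1 counts per library it rested on few reads, it ranged from -2.78 to -1.64 with single libraries left out, and it was no longer called without CTR replicate 1 or 2 or IGF1 replicate 1. The passenger strand ssa-miR-29b-3-5p had 87.4, 76.5 and 54.7 in CTR and 43.7, 37.2 and 43.6 in IGF1, lower in every IGF1 library (log2 fold change -0.86 ± 0.22, edgeR adjusted p = 0.042), a call lost without CTR replicate 1 or 2 or any of the IGF1 libraries. The abundant miR-29a entries, 11 profiles with near-equal counts, had 7165, 4706 and 5071 in CTR and 5126, 3730.4 and 3881 in IGF1 for dre-miR-29a. IGF1 was lower in each pair while the groups overlapped, at a log2 fold change of -0.43 ± 0.11 (edgeR adjusted p = 0.0413). For the abundant miR-29b, dre-miR-29b had 1639, 1291 and 1236 in CTR and 1398, 956 and 1246 in IGF1, a log2 fold change of -0.25 ± 0.13 that did not pass (edgeR adjusted p = 0.435).

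dre-miR-338-5p, also followed up by the study and chosen on these libraries, is the rarer arm of a miRNA that lies in an intron of the Aatk gene in mammals. It had 105, 114 and 118 normalised counts in CTR and 184, 163 and 238 in IGF1, without overlap (log2 fold change 0.76 ± 0.17, edgeR adjusted p = 0.036). The major arm of miR-338 was at -0.03, and 3 of the 5 miR-338 profiles were below 0. dre-miR-30a-3p, the passenger strand of a family that represses the matrix growth factor Ctgf in rodents, had 49.9, 44.2 and 63.3 in CTR and 85.2, 81.5 and 106 in IGF1, with IGF1 above CTR throughout (log2 fold change 0.77 ± 0.18, edgeR adjusted p = 0.0406). Its call was lost whenever any 1 of the 6 CTR and IGF1 libraries was left out, and that on dre-miR-338-5p without any of the 3 CTR libraries or IGF1 replicate 1 or 3. The miR-30 family had 15 of 43 profiles above 0 and a median of -0.04, which changed sign without CTR replicate 2 or IGF1 replicate 2 (0.02 and 0.01).

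**Figure D2:**
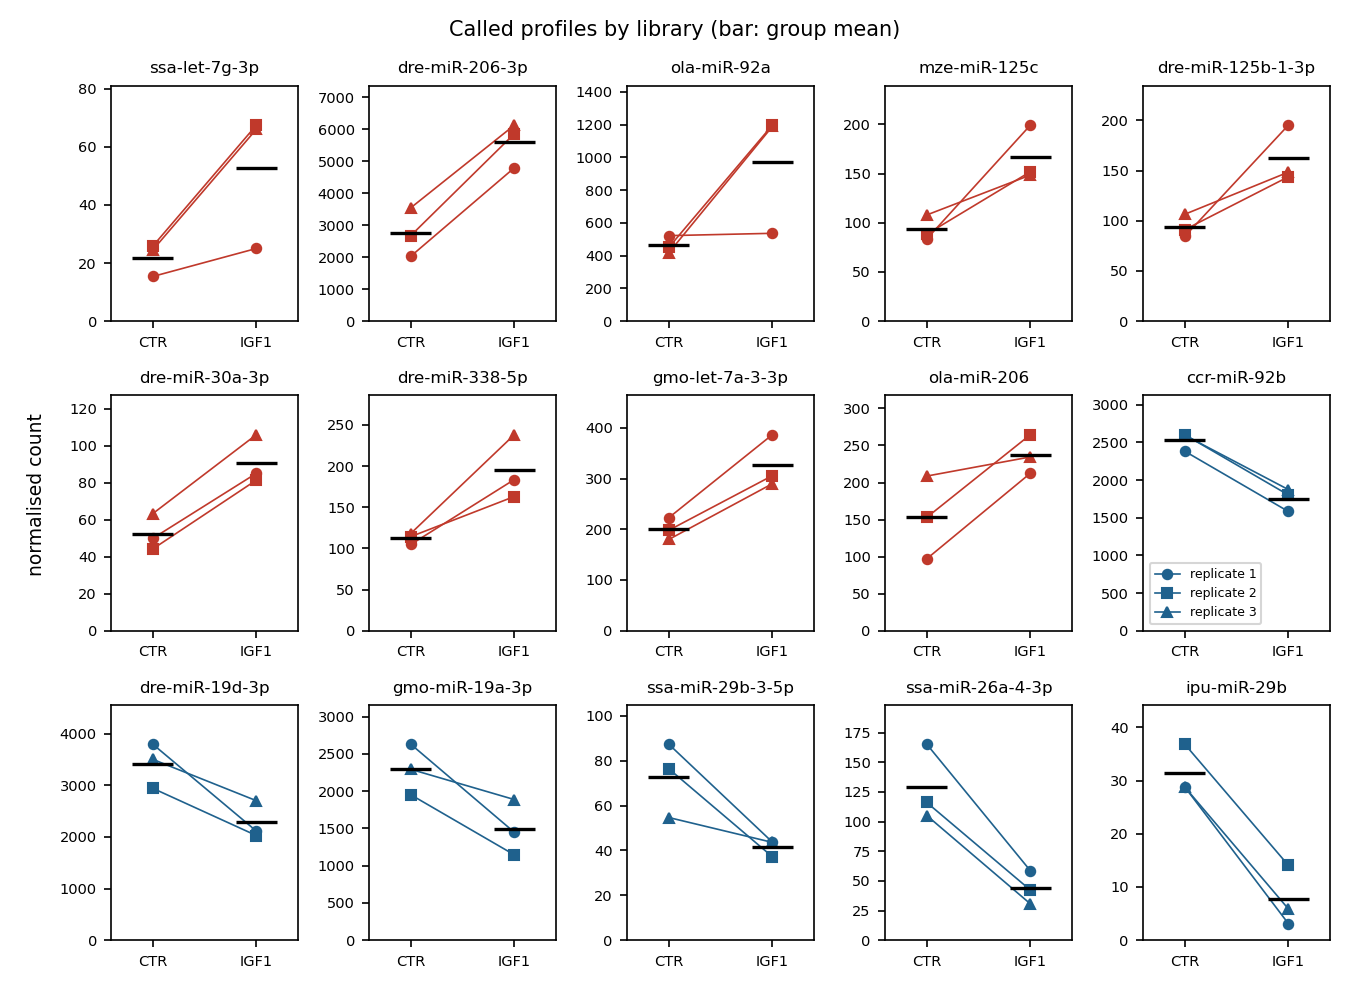
Normalised counts (y axis, each from 0) of the called profiles in CTR and IGF1, with 1 marker per library, lines joining equal replicate numbers and bars at the group means; 1 profile is drawn for each near-identical set. Lines run upward in the red panels and downward in the blue ones, and IGF1 replicate 1 stays near CTR in ola-miR-92a and ssa-let-7g-3p.

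Among the profiles under the fold threshold, the 5 higher ones with the smallest p came from miR-181, miR-148, miR-152 and miR-196. dre-miR-181a-3p had 1575, 1818 and 1874 normalised counts in CTR and 2459, 2727 and 2547 in IGF1, a wide gap for its spread (log2 fold change 0.53 ± 0.09, edgeR adjusted p = 0.00704). It is the rarer arm of miR-181a, whose major arm was at a median of 0.11. miR-181 promotes differentiation of mouse myoblasts by lowering a Hox protein, and 16 of its 20 profiles were above 0, with a median of 0.18 (0.09 without CTR replicate 1). ssa-miR-148a-5p had 768, 753 and 867 in CTR and 1082, 1139 and 1268 in IGF1 (log2 fold change 0.52 ± 0.10, edgeR adjusted p = 0.0181). The partner strand of miR-148a, which represses DNA methyltransferase 1 in human cells and promotes differentiation of mouse myoblasts, was at 0.11 ± 0.07 for ssa-miR-148a-3p. gmo-miR-152-5p (0.49 ± 0.10) and gmo-miR-148-5p (0.46 ± 0.10) were also higher. Their mean counts over the 9 libraries were 992 and 1202, beside 977 for ssa-miR-148a-5p. ssa-miR-196a-4-3p, from the Hox clusters, had 573, 686 and 675 in CTR and 977, 934 and 961 in IGF1, which did not overlap (log2 fold change 0.55 ± 0.12, edgeR adjusted p = 0.0289). The remaining higher profiles were a near-identical set of miR-22b and ola-miR-22, at 0.36 ± 0.09 (edgeR adjusted p = 0.0413).

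On the lower side the smallest p under the threshold belonged to 7 near-identical profiles of miR-101a. miR-101 represses EZH2 in human cells. dre-miR-101a had 13157, 8624 and 13249 normalised counts in CTR and 9581, 6936 and 7624 in IGF1. IGF1 was lower in all 3 pairs, although CTR replicate 2 lay below IGF1 replicate 1, and the log2 fold change was -0.55 ± 0.09 (edgeR adjusted p = 0.00704). At -0.545 it missed the threshold narrowly and crossed it in 8 of 23 alternatives. The most abundant miRNAs of the table moved little, with log2 fold changes of 0.01 ± 0.08 for dre-miR-21 and 0.07 ± 0.04 for dre-miR-22a-3p, 1 of 11 near-identical profiles, the latter higher in all 3 pairs (edgeR adjusted p = 0.435). dre-miR-21 itself had 5997940, 5958250 and 5935370 normalised counts in CTR and 5144160, 6293810 and 7156680 in IGF1, so that the IGF1 libraries spread to both sides of CTR.

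Small shifts shared within families were examined as the count of profiles on each side of 0, beside 49.5% above 0 over all profiles, and as a test of the counts summed over the family. Of the 47 families with at least 5 profiles, 21 had a median above 0. Profiles of 3 families were all above 0, namely miR-128, miR-148 and miR-218, and those of 5 families were all below 0, namely miR-16, miR-18, miR-19, miR-214 and miR-454. In miR-214, 6 of 7 profiles were above 0 without CTR replicate 2 and as many under upper-quartile factors. Without CTR replicate 1, 6 of 9 miR-148 and 4 of 7 miR-128 profiles were above 0, the latter also without IGF1 replicate 1. The family sums were tested for 118 families, and 4 passed the adjusted p (3.39%), miR-206 and miR-734 higher and miR-101 and miR-19 lower in IGF1. Without the block 0 of the family sums passed, and DESeq2 gave 4 with the block and 1 without it.

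**Figure D3:**
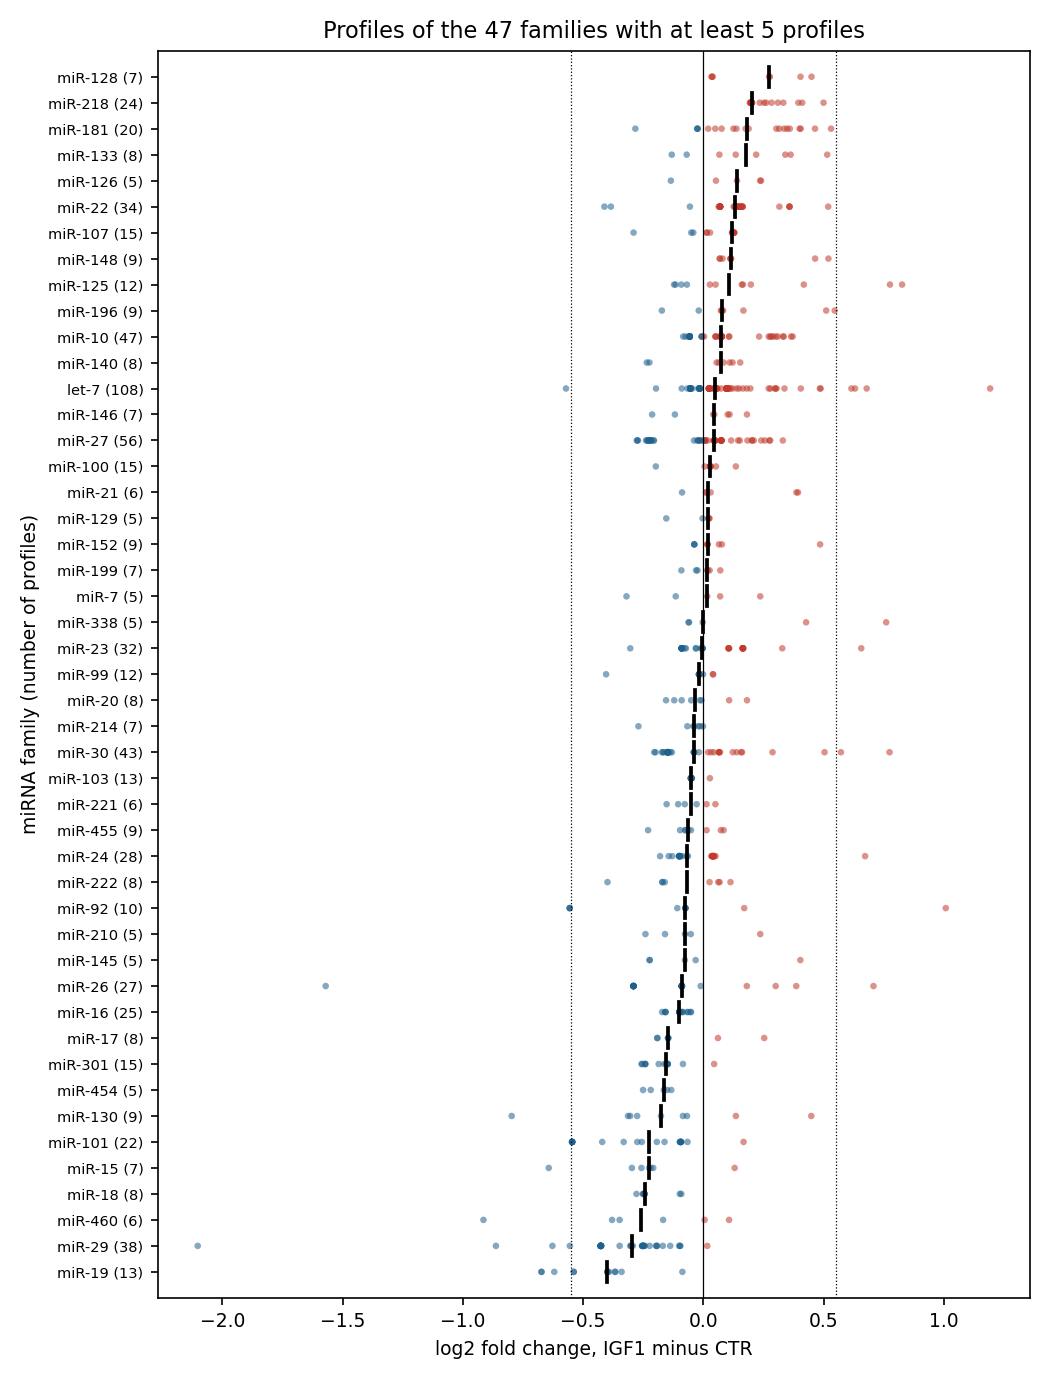
Log2 fold change of every profile (points, x axis) in the 47 families with at least 5 profiles (rows, ordered by the median, which is the black bar), red above and blue below 0, with the 0.55 thresholds dotted. miR-19 and miR-29 lie almost wholly to the left of 0 and miR-128 and miR-218 to the right, mostly within the thresholds.

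Among the 47 families with at least 5 profiles miR-19 had the lowest median, with 13 of 13 profiles below 0, a median of -0.40 (-0.23 without CTR replicate 1) and 11 of 13 lower in all 3 pairs. Its summed normalised counts were 35235, 25497 and 30656 in CTR and 20831, 18018 and 26188 in IGF1. IGF1 was lower in each pair, although IGF1 replicate 3 lay just above CTR replicate 2, and the log2 fold change of the sum was -0.50 ± 0.12 (edgeR adjusted p = 0.0377). Sums may count the same reads once per distinct profile, so only their ratios between libraries can be read. In these ratios members with many near-identical profiles weigh more. The call on the miR-19 sum held in 13 of 23 alternatives and was lost with near-identical entries collapsed. In 12 of 13 profiles the direction also held under upper-quartile factors.

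miR-29 came next, with 37 of 38 profiles below 0, a median of -0.30 and 22 lower in all 3 pairs. The profiles were 18 near-identical groups, and the median taken over groups was smaller, at -0.21. Of the 38 profiles 13 passed the adjusted p. These 13 were mostly near-equal entries of miR-29a, so they are far fewer separate observations. Summed normalised counts were 115082, 83111 and 85078 in CTR and 86524, 66273 and 71978 in IGF1, lower in each pair with 1 IGF1 library inside the CTR range. The sum did not pass (log2 fold change -0.33 ± 0.09, edgeR adjusted p = 0.0959) and passed in 7 of 23 alternatives. The median shift was -0.36 and -0.35 in pairs 1 and 2 but -0.08 in pair 3.

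miR-101 had 21 of 22 profiles below 0 with a median of -0.22, and 18 were lower in all 3 pairs. Its sum was 105910, 69971 and 105642 in CTR and 80094, 57739 and 63276 in IGF1, at a log2 fold change of -0.47 ± 0.09 (edgeR adjusted p = 0.0056), and passed in 16 of 23 alternatives. The miR-101 sum no longer passed with near-identical entries collapsed. miR-101b was lower by less than miR-101a, at -0.09 ± 0.12 for dre-miR-101b against -0.55 ± 0.09. The miR-17-92 relatives miR-18 and miR-106 had 8 of 8 and 4 of 4 profiles below 0, with medians of -0.24 and -0.27, and miR-15, miR-460, miR-301 and miR-454 had medians of -0.23, -0.26, -0.15 and -0.16. These medians rested on few libraries. The median of miR-454 changed sign without CTR replicate 1, to 0.06. That of miR-18 was -0.12 without CTR replicate 2 and -0.08 without IGF1 replicate 3, and that of miR-15 was -0.51 without IGF1 replicate 2 and -0.12 without IGF1 replicate 1. Without CTR replicate 2 the median was -0.17 for miR-460 and -0.08 for miR-301. None of the sums of these 6 families passed the adjusted p. In miR-16, which restrains the cell cycle in human cells, 25 of 25 profiles were below 0 by a median of only -0.10 (-0.06 without IGF1 replicate 2), and 21 of the 25 were above 0 under upper-quartile factors.

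On the higher side, miR-218, which lies in introns of the Slit2 and Slit3 genes in mammals, had 24 of 24 profiles above 0 with a median of 0.20. Its sum was 14684, 22645 and 20503 in CTR and 19307, 25829 and 22022 in IGF1. IGF1 was higher in every pair but the groups overlapped, and neither the sum (log2 fold change 0.23 ± 0.08, edgeR adjusted p = 0.243) nor any single profile passed. The 24 profiles were 14 near-identical groups, and the direction held under RLE, upper-quartile and no composition factors. miR-128, known from the mammalian brain, had 7 of 7 profiles above 0 with a median of 0.27, but its abundant 3p entries were near 0 (dre-miR-128-3p at 0.04 ± 0.06) and its sum was at 0.07 ± 0.07. miR-148 had 9 of 9 and miR-22 31 of 34 profiles above 0, with medians of 0.11 and 0.13, which fell to 0.05 for miR-148 without IGF1 replicate 1 and to 0.06 for miR-22 without CTR replicate 3. miR-133 and miR-126, an endothelial miRNA, had medians of 0.18 and 0.14 over 8 and 5 profiles, and their sums did not pass. For miR-133 the median was 0.04, with 4 of 8 above 0, without CTR replicate 3 and 0.05 without IGF1 replicate 1, and for miR-126 it was 0.0011 without CTR replicate 1. Over all entries, identical ones included, both medians were below 0, at -0.05 and -0.12.

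The other called family was miR-734, described in fish and of no role known here. Its 2 near-identical profiles had sums of 5.76, 11.1 and 17.3 normalised counts in CTR and 14.1, 35.2 and 42.4 in IGF1. IGF1 was higher in every pair although IGF1 replicate 1 lay inside the CTR range, and the log2 fold change was 1.43 ± 0.30 (edgeR adjusted p = 0.0138). Single profiles of miR-734 did not pass (edgeR adjusted p = 0.0721 for dre-miR-734), and at a mean of 20.1 counts per library the sum held its call in 13 of 22 alternatives. The 2 profiles may hold mostly the same reads, which the sum then counts once for each. The miR-734 call was lost with near-identical entries collapsed and over zebrafish entries alone. For miR-206 the sum gave 1.04 ± 0.09 and passed in 22 of 23 alternatives, all but the fit without the block.

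**Figure D4:**
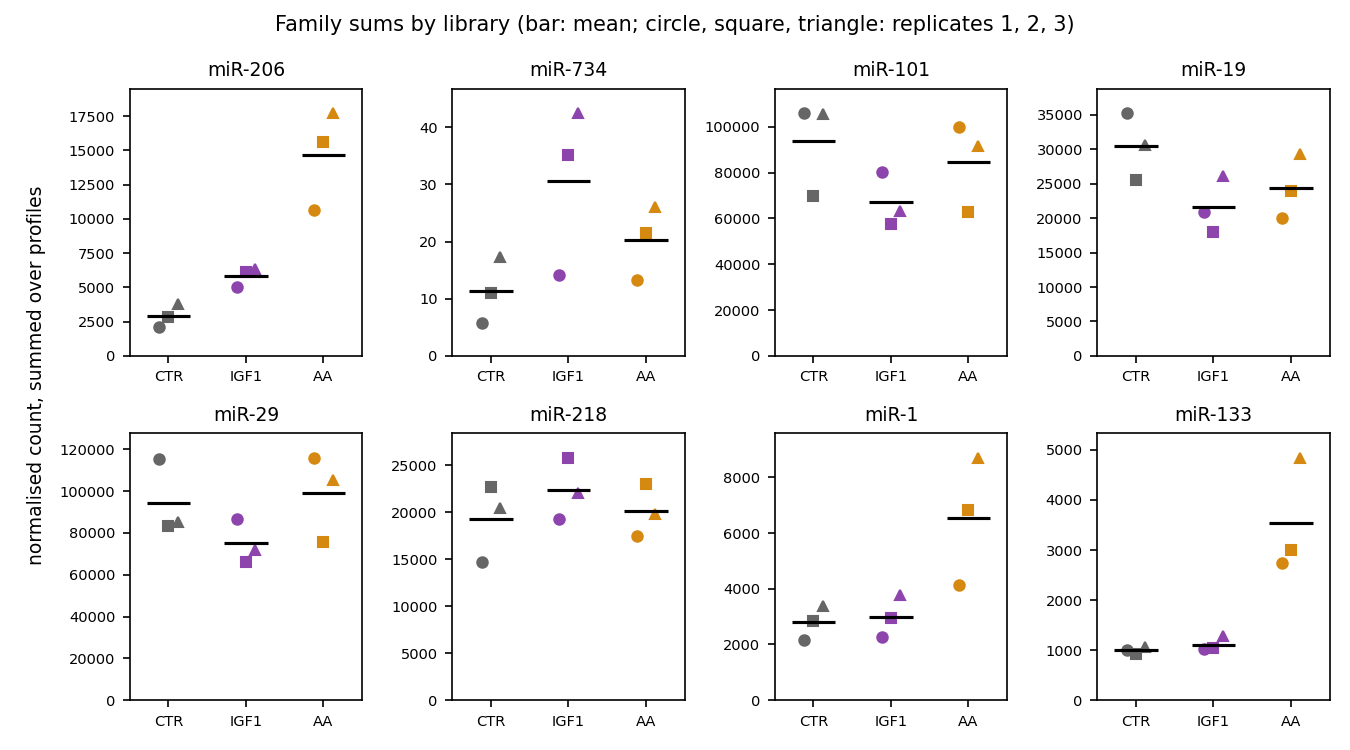
Normalised counts summed over the profiles of 8 families (y axis, from 0) in CTR, IGF1 and AA, with 1 marker per library and a bar at the mean. miR-206 lies in 3 steps from CTR through IGF1 to AA, miR-101, miR-19 and miR-29 are lowest on average in IGF1, and the CTR and IGF1 libraries of miR-1 and miR-133 overlap.

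Lists of miRNAs grouped by known roles are described by their counts beside those of all profiles. Over all profiles 0.944% were called higher and 0.944% lower. By the adjusted p alone 1.78% passed as higher and 3.99% as lower. The miR-17-92 cluster and its paralogs had 52 of 61 profiles below 0 with a median of -0.15, and 6 called lower beside 1 called higher, ola-miR-92a. The list goes by miRNA number whatever the letter, and its lower calls were 3 profiles of miR-19 and 3 of miR-92b. The pair medians were -0.33, -0.13 and -0.17, and 26 of the 61 were above 0 under upper-quartile factors. The list's median was -0.27 without IGF1 replicate 2 and -0.09 without IGF1 replicate 3. miRNAs with the miR-15 and miR-16 seed and miR-34, which brake the cell cycle, were also mostly below 0, in 35 of 38 profiles with a median of -0.10, but 26 of 38 were above 0 under upper-quartile factors, and none passed. The matrix and fibrosis list (miR-29, miR-30, miR-101 and miR-338) had 89 of 108 below 0 with a median of -0.15. By the adjusted p 20 of its profiles passed as lower, 13 of miR-29 and 7 of miR-101, while 2 passed as higher, dre-miR-338-5p and dre-miR-30a-3p. The 13 were mostly near-equal entries of miR-29a and the 7 near-identical entries of miR-101a, so they are far fewer separate observations. The list's median was -0.28 and -0.17 in pairs 1 and 2 and 0.01 in pair 3, and -0.24 without CTR replicate 3. Under upper-quartile factors 43 of the 108 were above 0, with a median of -0.0019.

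The list tied to IGF, insulin and PI3K, AKT and MTOR signalling had 127 of 224 profiles above 0 and a median of 0.02. Of these 224, 2 passed as higher and 15 as lower by the adjusted p, beside 1.78% and 3.99% of all profiles. In the list the 2 higher were both let-7 3p arms. The 15 lower were 10 of miR-26, mostly near-identical entries of miR-26b, and 5 of miR-19. Without composition factors 95 of the 224 were above 0, and without IGF1 replicate 1 94 were, with a median of -0.04. The list for muscle atrophy and protein turnover (miR-23, miR-27, miR-29 and miR-182) had 50 of 128 above 0 with a median of -0.03. All 13 that passed were of miR-29, mostly near-equal entries of miR-29a. Under upper-quartile factors 80 of these 128 were above 0, and the median was -0.09 without IGF1 replicate 2 and -0.10 without IGF1 replicate 3. miRNAs of myogenic progression outside the muscle-specific list were evenly split, 80 of 159 above 0, with 10 lower profiles of miR-26 and 1 higher of miR-181 passing, and 64 were above 0 without CTR replicate 1. The Hox cluster list (miR-10 and miR-196) had 37 of 56 above 0, inflammation (miR-21, miR-146 and miR-155) 12 of 15, and miR-125 with miR-99 and miR-100 24 of 39, with medians of 0.08, 0.05 and 0.03. Single libraries decided these counts. The Hox list had 21 of 56 above 0 without CTR replicate 3 and as many without IGF1 replicate 3, with medians of -0.01 and -0.04, and inflammation 7 of 15 without CTR replicate 3, with a median of -0.02. For miR-125, miR-99 and miR-100 the count was 7 of 39 without IGF1 replicate 1 and 11 of 39 without composition factors.

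Markers of other cell types showed no called profile. The mesenchymal and fibroblast list had 16 of 40 profiles above 0 with a median of -0.03, 34 of 40 above 0 under upper-quartile factors and 26 of 40 without CTR replicate 2. Blood and endothelial markers had 8 of 12 and neural markers 12 of 17 above 0, with medians of 0.18 and 0.09, which were 0.02 for blood and endothelial markers without CTR replicate 3 and 0.04 for neural markers without IGF1 replicate 1. Epithelial and liver markers had 8 of 9 above 0 and the highest median, 0.31 (0.19 without IGF1 replicate 2), at a median level of 102 counts per profile. Without IGF1 replicate 1 only 5 of these 9 were above 0, and their median was 0.39 and 0.36 in pairs 1 and 2 but 0.03 in pair 3. The part of these cell type markers in the other results was not tested.

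**Figure D5:**
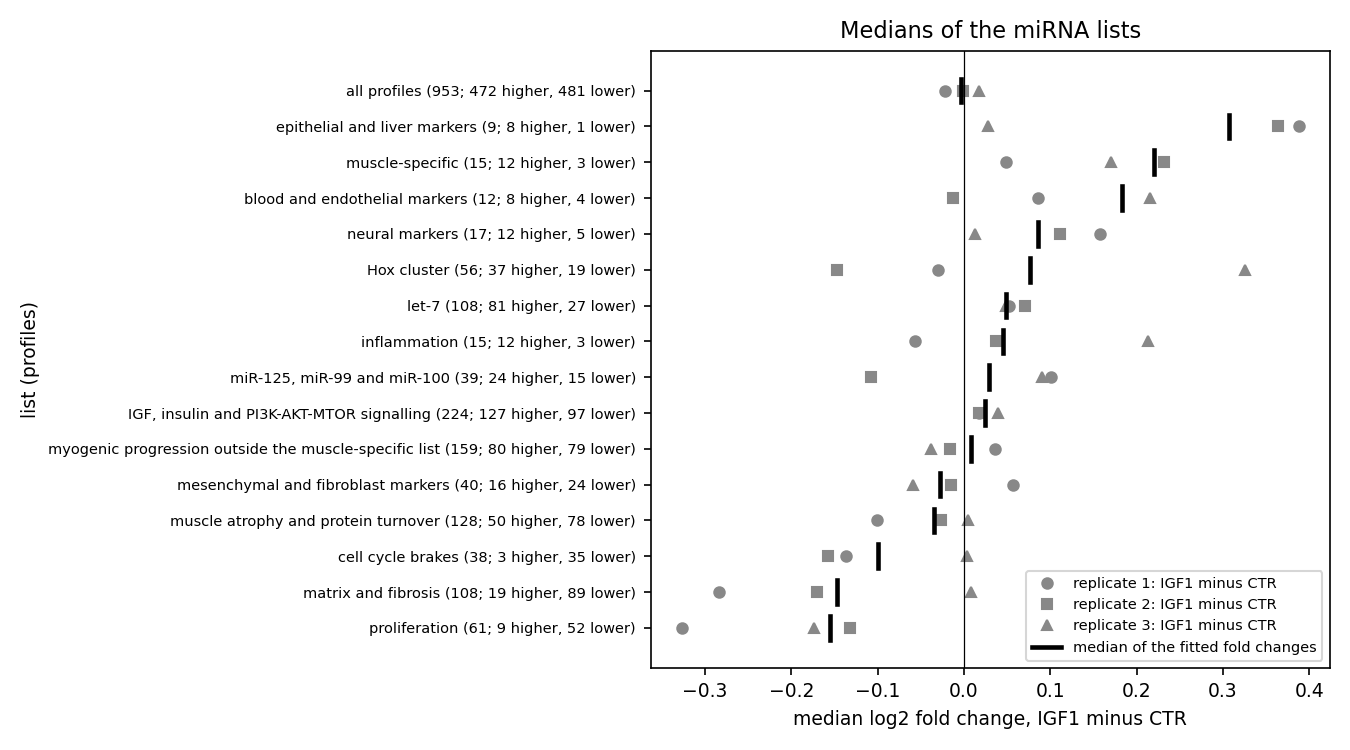
Median log2 fold change of IGF1 over CTR (x axis) for each miRNA list and for all profiles (rows, with the number of profiles and how many lay above and below 0); black bars are fitted medians and gray markers the medians within each replicate pair. The proliferation list lies left of 0 in all 3 pairs and the muscle-specific list right of 0 in all 3, while the matrix and fibrosis list crosses 0 in pair 3.

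Rarer arms recurred among the higher profiles. Of the 17 profiles higher by the adjusted p, 10 were the less abundant (minor) arm of a miRNA with both arms named and 1 was the major arm. The other 6 belonged to no such pair of arms. Of the 38 lower profiles 2 were minor arms, 2 major arms and 34 without a pair, and of all 953 profiles 132, 149 and 672. With so few lower profiles in a pair, the higher and lower sides cannot be compared in this respect. The minor arms as a whole were not shifted, with 71 of 132 above 0 and a median of 0.03, and major arms had 86 of 149 above 0 and a median of 0.03. Where both arms of a miRNA were tested, the minor arm had the higher fold change in 42 of 77 cases (54.5%). Gaps of similar size ran both ways. The minor arm was higher in miR-338 (0.76 against -0.03) and, on few counts, in miR-23a (0.66 against -0.09). It was lower in miR-33b (-0.13 against 0.71), which had the widest gap on few counts, and in let-7i (-0.57 against 0.11). In miR-26a the opposing arm entries ssa-miR-26a-4-3p and dre-miR-26a-3p themselves differed, at -1.57 and 0.18.

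Amino acids and IGF1 were compared directly to see where their responses differed in size. AA and IGF1 share the CTR libraries, so each comparison's values are given side by side and the difference was tested as AA against IGF1. In this contrast 98 of the 953 profiles (10.3%) and 9 of the 118 family sums (7.63%) passed the adjusted p, and 7 of the 18 called profiles differed. The 18 were chosen on the IGF1 libraries that this contrast also uses. Their count thus follows in part from the choice and is not separate support. For dre-miR-206-3p, AA had 10111, 14963 and 16911 normalised counts, all above the IGF1 libraries, and lay 1.34 above IGF1 on the log2 scale (edgeR adjusted p = 5.6e-06). ola-miR-206 lay 1.46 higher in AA. ssa-miR-26a-4-3p, lowered by IGF1, had 104, 91.0 and 125 in AA, above every IGF1 library, a difference of 1.31 (edgeR adjusted p = 0.0047). ccr-miR-92b had 2787, 3193 and 3193 in AA, where its log2 fold change against CTR was 0.29 against -0.56 for IGF1, and the difference of 0.84 passed (edgeR adjusted p = 5.2e-05). ola-miR-92a had 421, 359 and 379 in AA, below all IGF1 libraries (AA minus IGF1 -1.25, edgeR adjusted p = 0.014).

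The other 11 calls did not differ between AA and IGF1 at the adjusted p, which does not show that they were equal. gmo-let-7a-3-3p was at 0.65 in AA and 0.68 in IGF1 against CTR, with a difference of -0.02. ipu-miR-29b was at -2.09 and -2.10, mze-miR-125c at 0.85 and 0.83, dre-miR-19d-3p at -0.49 and -0.62, and dre-miR-338-5p at 0.65 and 0.76. Among the family sums, miR-29 differed, at 0.12 in AA and -0.33 in IGF1 (AA minus IGF1 0.44 ± 0.09, edgeR adjusted p = 0.0075), and miR-101 did too, at -0.09 and -0.47 (difference 0.38 ± 0.09, edgeR adjusted p = 0.0112). miR-106 (0.39) was also higher in AA, and miR-204 (-0.96) and miR-365 (-0.52) were higher in IGF1. The muscle-specific families differed most, with AA above IGF1 by 1.15 for miR-1, 1.36 for miR-206, 1.70 for miR-133 and 1.82 for miR-499 on the log2 scale of the sums. miR-19, by contrast, was at -0.27 in AA and -0.50 in IGF1, and the difference did not pass (edgeR adjusted p = 0.283).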

How the data were processed

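Small RNA was sequenced from 9 libraries, 3 each of CTR, AA and IGF1. Per the study's methods, the authors removed adapters with Trimmomatic, kept reads longer than 17 nucleotides, ran Bowtie2 against mature miRNAs of 13 fish species in miRBase and deposited raw counts per entry, together with normalised counts, a signal in which the deposited counts are divided by a size factor per library (0.695 to 1.36). The sources used here do not say how a read matching more than 1 entry was counted, and total counts were about 10.7 times those over zebrafish entries. Normalised counts printed per library are the authors' values, and the tests used the raw counts. Total counts over zebrafish entries were 7627250 to 12908100 per library, and their number limits precision for rare entries.

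Entries averaging under 10 counts were left out, and entries with identical counts were merged. The remaining counts were fitted with edgeR 4.0.16 under R 4.3.3 (quasi-likelihood test, TMM factors, replicate number and group as terms, all 9 libraries), and p-values were adjusted by Benjamini-Hochberg over 953 profiles, or over 118 families for sums. Calls needed an adjusted p no larger than 0.05 and a log2 fold change at or beyond 0.55 in either direction. Errors are standard errors, derived as the absolute log2 fold change divided by the square root of the F value of the quasi-likelihood test. They rest on the fit of all 9 libraries. The scripts were tested on simulated data.

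The labels number the replicates 1 to 3 in each group. The plan of the work set the replicate number as a block, so the numbers were taken to pair the libraries. Deviations from the group means correlated at 0.287 to 0.566 for libraries of equal number (9 pairs). Between CTR and IGF1 the values were 0.562, 0.537 and 0.288 for replicates 1, 2 and 3. For unequal numbers (18 pairs) the range was -0.484 to 0.150. Centring within groups of 3 lowers these values, so they are not separate support. Because the source culture of each library is not stated, p-values measure the spread between these libraries.

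Members and lists were chosen with earlier results of these data known. Named miRNAs were all called profiles, the 5 with the smallest p in each direction among those under the fold threshold, the muscle-specific list, the 5 most abundant profiles, families with the 5 highest and 5 lowest medians or a called sum, 2 miRNAs the study followed up, and the 3 profiles nearest either side of the threshold. Others were named after their values were seen. Alternatives were DESeq2 1.42.0, no block, other scaling, other filters, other entry sets and libraries left out.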

Additional observations from a re-analysis of the deposited data

How the results depend on the processing

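Of the 18 calls, 2 (dre-miR-206-3p and ssa-miR-26a-4-3p) were kept with every single library left out, and none of the 18 changed direction in any alternative. Medians of several families and lists did change sign, as given beside them. Without the replicate block edgeR gave 0 called profiles, 0 at the adjusted p alone, 0 called families and 0 called profiles differing between AA and IGF1. DESeq2 without the replicate block gave 11 called, 19 at the adjusted p alone, 1 family and 4 differing, and DESeq2 with the replicate block 14, 64, 4 and 4. Upper-quartile factors gave 39 called (36 higher, 3 lower), 121 at the adjusted p alone (103 higher, 18 lower), 6 families and 17 differing. No composition factors gave 27 called (9 higher, 18 lower), 5 families and 16 differing, and RLE factors 17 called (11 higher, 6 lower). Without the filter 7 families were called. A mean of at least 50 counts left 11 called, 34 at the adjusted p alone and 2 differing. All entries gave 32 at the adjusted p alone, and zebrafish entries 10 called, 13 at the adjusted p alone and 3 differing. Collapsed near-identical entries gave 29 at the adjusted p alone (18 higher, 11 lower) and 1 family. The 6 CTR and IGF1 libraries alone gave 6 families, where AA against IGF1 has no value, and family sums were not run over all entries. Leaving out 1 library gave 12 to 19 called, 12 to 58 at the adjusted p alone, 1 to 6 families and 5 to 13 differing. The profiles called were often others than the 18. Only 3 of the 12 called without CTR replicate 1 were among the 18, 5 of 12 without CTR replicate 2 and 4 of 13 without IGF1 replicate 1. Without any 1 of the other libraries 11 to 18 were. Leaving out replicate 1, 2 or 3 of all groups gave 1 to 17 called, 1 to 29 at the adjusted p alone, 1 to 8 families and 1 to 12 differing. The causes were not tested. Depth limits ipu-miR-29b, ssa-miR-206-5p and dre-miR-734, which rest on few counts.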
